A study of Mus musculus with 6 samples.

Results

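The genes described here are those whose array signal separated most clearly upward in the mammary glands of mice on a high-fat diet. A gene was taken when its lowest value on a high-fat array lay at least 0.7 log2 above its highest value on a control array. Of 15160 named genes measured well above background on all 6 arrays, 39 met this gap, or 0.257% of those tested. Of these, 7 were left out by name (Krt5, Krtdap, Dmkn, Myh11, Mrvi1, Nuak2 and Cfd), which left 32 genes. Krt17, Itgb4 and Il1rn were also on the list of names to leave out but did not meet the gap. The genes were thus chosen by their levels on these same 6 arrays, so the values below describe them and are no test of the diet.

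All animals were female mice with a knockout of Trp53, the gene for the tumour suppressor p53, so the controls lacked it too. They were assigned at random at 3 weeks of age to a high-fat diet (HFD) or a control diet (CD), ate it for 5 weeks and were sampled at 8 weeks of age, with 3 biological replicates per diet. The labels do not say whether a replicate is 1 mouse or a pool. They give the source of the RNA as mammary glands in one field and as mammary epithelial cells in another, and genes of skeletal muscle, fat and connective tissue were measured on all arrays beside those of epithelium. Each RNA was hybridised to a single-colour (Cy3) Agilent array. A level is log2 of a probe's signal relative to the 75th percentile of its array, and a difference is the mean high-fat level minus the mean control level, in log2, with SD over n = 3 arrays per diet.

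The mammary gland at this age is a branching epithelial tree in a fat pad. Its ducts have an inner luminal layer and an outer basal, or myoepithelial, layer. Basal cells make keratins of stratified epithelia, hold on to the basement membrane through integrins, and contract through actin, tropomyosin and smooth muscle myosin. Alpha-class glutathione S-transferases join glutathione to reactive products of lipid oxidation. Ligands of the TGF-beta, Hedgehog and WNT families carry signals between epithelium and stroma during branching.

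The 75th percentile of signal ran from 1433 to 2161 intensity units over the 6 arrays, between 27241 and 29449 probes per array lay well above background, and no probe was saturated. The first principal component of all genes held 53.5% of the variance and set high-fat arrays 1 and 2 apart (scores -46.8 and -36.2) from control arrays 2 and 3 (35.9 and 41.0). High-fat array 3 (6.70) and control array 1 (-0.617) lay between them. The arrays sat on 3 slides, of which 1 held high-fat arrays 2 and 3 with control array 1. A value from that slide alone is called the within-slide difference. The other slides held 1 diet each, so slide and diet can be told apart on that slide only.

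Over the 32 genes the median difference was 1.35 (range 0.92 to 3.47), against -0.0061 over all 15160 genes, which is how the genes were chosen. A fold over 2 was seen in 30 of the 32, and a fold over 4 in 5. Their within-slide differences ran from 0.74 to 2.88 with a median of 1.24. These arrays were part of the rule, which puts every such difference at 0.7 or more, so the median of 0.05 over all genes is no contrast to it. By the same gap, 87 genes (0.574%) were lower on the high-fat diet. The control arrays varied more than the high-fat arrays in 21 of the 32 genes, compared with 50.3% of all genes. Control array 3 was the lowest control in 27 of the 32 (84.4%), whereas it was the lowest control in 24.3% of all genes. Without it, the median difference of the 32 genes was 1.25.

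**Figure D1:**
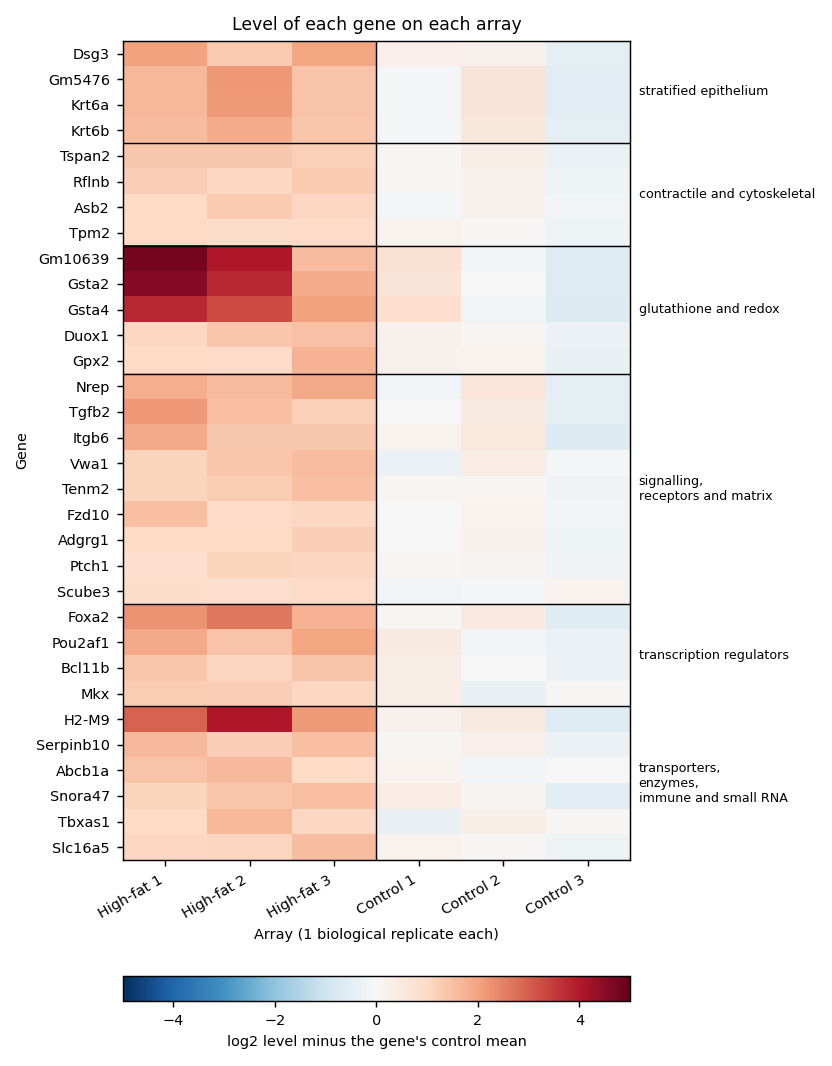
Heat map of the 32 genes (rows, by functional group) on the 6 arrays (columns). Colour gives the log2 level minus the gene's control mean, so red is above and blue below that mean. The darkest cells belong to H2-M9, Gsta2, Gsta4 and Gm10639 on high-fat arrays 1 and 2, and control array 3 is the palest or bluest control in most rows.

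The genes just inside and just outside the threshold differed little. The smallest gaps among those taken were those of Scube3 (0.71), Mkx (0.72), Tbxas1 (0.72), Tpm2 (0.72) and Ptch1 (0.72). Just outside stood Col17a1 (0.69), Dnajb4 (0.67), Ikzf2 (0.66), Zfp92 (0.66) and Rec114 (0.65). Diets that merely did not overlap, with the high-fat arrays above, were seen in 1411 genes, or 9.31% of all, and with the control arrays above in 1334, or 8.8%.

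**Figure D2:**
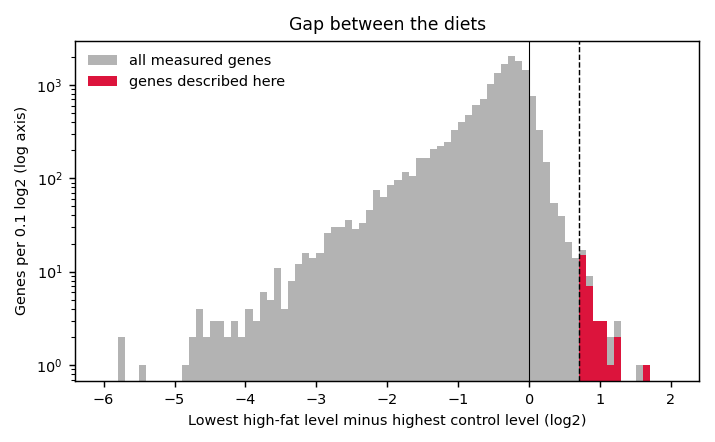
Histogram of the gap between the diets (lowest high-fat level minus highest control level, log2) over 15160 genes in bins of 0.1, on a log count axis. The dashed line marks 0.7; the genes described here (red) form the right-hand tail, and grey beyond the line is the 7 genes left out by name.

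Stretches upstream of 3 of the genes are shown because they hold matches to motifs that were searched in all promoters. They are 100 bases before the start site in RefSeq (GRCm38.p6), written from 5′ to 3′ on the gene's strand. Capitals mark the match: a CArG box, which binds serum response factor, and CACGTG, an E-box, in Asb2 (chr12:103356002-103356101, minus strand), and TGANTCA, a loose form of the AP-1 motif in which the central base is free, in Serpinb10 (chr1:107528903-107529002, plus strand) and Tbxas1 (chr6:38918886-38918985, plus strand).
Asb2: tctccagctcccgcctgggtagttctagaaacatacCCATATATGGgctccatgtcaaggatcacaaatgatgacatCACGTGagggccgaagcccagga
Serpinb10: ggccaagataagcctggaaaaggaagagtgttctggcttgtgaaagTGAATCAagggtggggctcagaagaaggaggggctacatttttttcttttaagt
Tbxas1: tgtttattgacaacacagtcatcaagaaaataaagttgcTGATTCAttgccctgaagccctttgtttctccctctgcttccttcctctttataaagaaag

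The CArG box of Asb2 lay at -64 to -55 from the start site and its CACGTG at -23 to -18, while TGANTCA lay at -54 to -48 in Serpinb10 and at -61 to -55 in Tbxas1. RefSeq windows were matched for 22 of the 32 genes (29 windows), and the 250 bases before each start were searched on both strands. TGANTCA was found in 3 windows (10.3%; Adgrg1, Serpinb10 and Tbxas1), against 6.75% of 32851 windows of the same length. The AP-1 consensus has C or G at the free base, which Adgrg1 has (TGACTCA) and Serpinb10 and Tbxas1 do not. CACGTG stood in 2 (6.9%; Asb2 and Tgfb2) against 6.02%, and a CArG box in 2 (6.9%; Asb2 and Itgb6) against 1.47%. TGACNNNGC, the core of the antioxidant response element, was found in Itgb6 and Pou2af1 (6.9% against 10.2%). GGAATG, read by TEAD factors, stood upstream of Abcb1a and Serpinb10 (6.9% against 12.6%). TATAAA was found in 6 windows (20.7% against 12.4%), upstream of Foxa2, Gsta2, H2-M9, Tbxas1 and Tgfb2. TGANTCA and TGACNNNGC can match the same bases, as can TATAAA and a CArG box. These matches are letters in a window and show no binding.

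The stratified epithelial group held 4 genes. Krt6a encodes a keratin of stressed epithelial cells. Its level was -0.11, 0.37 and -0.34 on high-fat arrays 1 to 3 and -1.82, -1.10 and -2.32 on control arrays 1 to 3. All high-fat arrays lay above all controls, high-fat array 2 being the highest and control array 3 the lowest, and the difference was 1.72 (-0.02 ± 0.36 against -1.75 ± 0.62). Krt6b, its neighbour and close relative, was at -2.48, -2.20 and -2.67 against -4.15, -3.52 and -4.53, a difference of 1.62. Gm5476, a transcribed pseudogene 4 genes from Krt6b, was at -2.01, -1.48 and -2.22 against -3.72, -3.01 and -4.21, a difference of 1.75. All 3 therefore ranked the arrays in the same order within each diet. Their sequences may be alike enough for probes to share signal, so the 3 are uncertain as separate measurements. A second Krt6b probe gave a difference of 0.92 with overlapping diets (gap -0.70).

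Dsg3, the desmosomal cadherin desmoglein 3 of basal and suprabasal keratinocytes, was at -1.61, -2.32 and -1.67 on the high-fat arrays and -3.37, -3.40 and -4.13 on the controls. The lowest high-fat array, number 2, lay 1.05 above the highest control, and the difference was 1.77 (-1.87 ± 0.39 against -3.63 ± 0.43). A second probe gave 1.62.

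Relatives outside the 32 genes, in families put together after the values were seen, were mostly higher with smaller gaps. Here and below, the counts of a family or list include the genes of the 32 and the names left out that belong to it. Of 12 keratins measured, 11 were higher, among them Krt14 of basal cells at 1.23 (gap 0.20). The luminal keratins Krt8 at 0.98 and Krt18 at 0.50 were also among these, but their diets overlapped. The 12 include Krt5 (gap 0.83), which met the rule, and Krt17 (gap 0.56), both left out by name. Krt10, a keratin of differentiated epidermis, stood at -0.06, Krt1 was well above background on 1 array and Krt75 on none. All 8 desmosomal genes measured were higher, 7 of them without overlap, where 9.31% of all genes were higher without overlap. The 7 include Dsg3, for which the rule required it, and the plaque genes Jup (0.78), Pkp1 (0.81) and Dsp (0.64). The median of the 8 was 0.67 over all arrays and 0.42 within the slide, with Dsp at 0.21 there, Jup at 0.80 and Pkp1 at 1.15. Dsc1, Dsg1a, Dsg1b and Dsg1c, cadherins of cornifying epidermis, were not well above background on any array.

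The marker lists for these cells were also mostly higher on the high-fat diet. They were chosen with earlier results of these data known, so their counts are no independent test. Of 38 basal or myoepithelial markers measured, 34 were higher and 4 lower, with a median of 0.75; the list holds 2 of the 32 genes and 4 names from the list of genes to leave out (Krt5, Krt17, Itgb4 and Myh11). Their summed signal, in multiples of the array's 75th percentile, was 413 to 530 on the high-fat arrays and 288 to 341 on the controls. None passed limma's test at an adjusted p of 0.05, a threshold that 1 gene of all those tested passed upward (0.0066%; Mrvi1, adjusted p = 0.0472 by limma). Limma called no gene in either direction when high-fat array 1 or 2 or control array 1 or 2 was left out, nor with slide as a block. At an unadjusted p of 0.05, 15 were higher and 1 lower once those 6 were set aside (28 of the remaining markers being higher and 4 lower, with a median of 0.61), where 6.99% and 7.94% of all genes were higher and lower. Among its genes with the smallest p, beyond the 32 and the names left out, were Jag2, a Notch ligand (0.76, SE 0.15), Col17a1, a hemidesmosomal collagen (1.25, SE 0.25), Wnt10a, a WNT ligand (1.26, SE 0.27) and Cnn1, a calponin (1.32, SE 0.29), with adjusted p between 0.156 and 0.182 by limma. Trp63, the master factor of basal cells, stood at 0.17.

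Among 23 keratinocyte markers, 16 were higher and 7 lower (median 0.62; 0.25 without high-fat array 2), and the summed signal was 70.0 to 82.5 against 39.7 to 54.4. None passed limma's test. Leaving out Dsg3, Krtdap and Dmkn, 7 were higher and 0 lower at an unadjusted p of 0.05, and the median was 0.48. Sfn, an adaptor protein of epithelia, stood at 1.09 (SE 0.21) and Perp, a desmosome-associated protein, at 0.92 (SE 0.18). In these bulk samples, more cells of a type and more RNA per cell cannot be told apart, and the part of cell makeup in the differences was not tested.

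**Figure D3:**
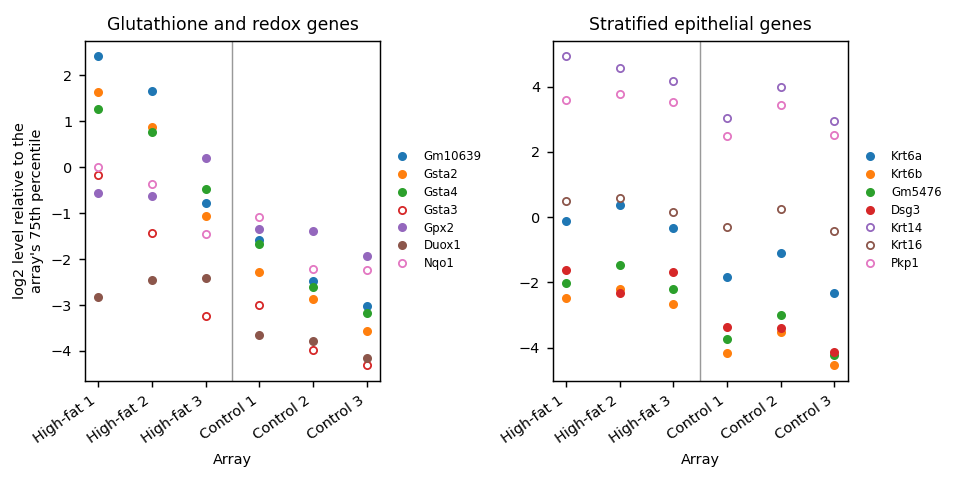
Level (log2 relative to the array's 75th percentile) of glutathione and redox genes (left) and stratified epithelial genes (right) on each array. Filled points are genes of the 32 and open points relatives outside them; Gm10639, Gsta2 and Gsta4 fall from high-fat array 1 to array 3, whereas Krt6a, Krt6b and Gm5476 peak on high-fat array 2.

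The contractile and cytoskeletal genes differed less but varied little among the high-fat arrays. Tpm2, the beta-tropomyosin that lies along actin filaments in contractile cells, was at 4.59, 4.52 and 4.55 on the high-fat arrays and 3.80, 3.66 and 3.36 on the controls. The high-fat arrays lay within 0.07 of each other, and the difference was 0.95 (4.55 ± 0.04 against 3.60 ± 0.22). A second Tpm2 probe gave 0.96. The other tropomyosins differed by 0.38 (Tpm1), 0.17 (Tpm3) and 0.05 (Tpm4), with overlapping diets.

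Tspan2, a tetraspanin of the cell membrane that is also on the basal marker list, was at 0.03, 0.02 and -0.12 against -1.27, -1.02 and -1.67, a difference of 1.30. Its high-fat arrays agreed within 0.15, and its second probe gave 1.40. Rflnb, which encodes the filamin partner refilin B, was at -1.88, -2.11 and -1.83 against -3.07, -2.92 and -3.39, a difference of 1.19. Its relative Rflna differed by 0.57 with overlap. Asb2, the substrate-binding part of a ubiquitin ligase that targets filamins, was at -4.38, -4.04 and -4.34 against -5.42, -5.16 and -5.52, a difference of 1.11. For all 3 genes control array 3 was the lowest and control array 2 the highest of the controls.

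Of 24 smooth muscle and pericyte markers, 20 were higher and 4 lower with a median of 0.47. They hold Tpm2 and 2 names left out, Mrvi1 and Myh11, which both met the gap. With these set aside, 17 of 21 were higher and 4 lower (median 0.38). At an unadjusted limma p of 0.05, 7 of the 21 were higher and 2 lower, where 6.99% and 7.94% of all genes were. Only Mrvi1 passed limma's test upward. The summed signal of the 24 was 253, 224 and 285 on high-fat arrays 1 to 3 and 143, 201 and 162 on control arrays 1 to 3. The sum includes Tpm2 itself. The part of these cell types in the differences of Tpm2 and Tspan2 was not tested. Among 26 genes of actin and adhesion, 21 were higher and 5 lower (median 0.25). None passed limma's test, the nearest outside the 32 genes being Myl9, a myosin light chain (1.05, SE 0.15, adjusted p = 0.0922 by limma). Asb2 is also a skeletal muscle marker, yet 20 of the 24 such markers measured were lower, 6 of them past limma's test with all arrays in the fit, as were 13 of all genes (0.0858%). The summed skeletal signal was 8.17 to 8.89 on the high-fat arrays and 19.5 to 25.1 on the controls.

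The alpha-class glutathione S-transferases, with H2-M9, had the largest differences of the 32 genes and the widest spread among the high-fat arrays. Gm10639, a predicted gene that lies between Gsta4 and Gsta2 in the same cluster, was at 2.42, 1.66 and -0.77 on high-fat arrays 1 to 3 and -1.59, -2.49 and -3.02 on control arrays 1 to 3. The difference was 3.47 (SD 1.66 on the high-fat diet and 0.73 on the control diet), and high-fat array 3 lay 3.19 below high-fat array 1 but 0.82 above the highest control. Gsta2, whose product conjugates glutathione to electrophiles, was at 1.64, 0.89 and -1.06 against -2.27, -2.87 and -3.56, a difference of 3.39. Gsta4, whose product is known for clearing the lipid peroxidation product 4-hydroxynonenal, was at 1.27, 0.76 and -0.48 against -1.66, -2.61 and -3.18, a difference of 3.00. All 3 fell into the same order, with high-fat array 1 highest and control array 3 lowest.

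These 3 values depended on the arrays compared. The within-slide differences were 2.03 for Gm10639, 2.19 for Gsta2 and 1.80 for Gsta4. Without high-fat array 3 the differences were 4.40, 4.16 and 3.50. Gsta2 and Gm10639 have 2 genes between them and Gsta4 and Gm10639 have 5, and close relatives in such a cluster can share probe signal, so the separate values are uncertain. A second Gm10639 probe gave 3.35. Gsta3, another alpha-class gene, was at -0.16, -1.43 and -3.24 against -3.00, -3.98 and -4.31. Its order over the arrays was like theirs, but high-fat array 3 lay below control array 1, and the within-slide difference was 0.67.

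The enzyme class as a whole was mixed. Of 24 glutathione S-transferases measured, 9 were higher and 15 lower (median -0.15), with Gstm2 at -1.15, Gsto1 at -0.66 and Gstp1 at 0.02. In Gstm2 the diets overlapped, and within the slide it stood at -0.24 and Gsto1 at -0.59. Among 11 genes of the NRF2 response, which induces detoxifying enzymes under oxidative stress, 8 were higher. Nqo1, a quinone reductase, stood at 1.25 and Slc7a11, the cystine transporter, at 1.12, but their diets overlapped and their within-slide differences were 0.18 and 0.03. Gclc and Gclm, the subunits of the enzyme that limits glutathione synthesis, stood at 0.51 and 0.70 (0.25 and -0.19 within the slide), and Hmox1 (haem oxygenase) at -0.02.

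The summed signal of 30 luminal markers was, like these genes, lowest on array 3 of the high-fat arrays, at 553, 715 and 331, though highest on array 2, against 419, 381 and 328 on the controls. Of these markers 25 were higher and 5 lower, none past limma's test (6 higher and 0 lower at an unadjusted p of 0.05). Their median was 0.53 over all arrays and -0.06 within the slide. The summed signal of 21 fibroblast and matrix markers was at 293, 284 and 663 against 474, 857 and 870, highest on array 3 of the high-fat arrays, and their median was -0.68 over all arrays and 0.16 within the slide. The part of these cell types in the glutathione genes was not tested.

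Gpx2, a glutathione peroxidase of epithelia, had another order, at -0.56, -0.62 and 0.20 against -1.35, -1.40 and -1.93. High-fat array 3 was its highest, and the difference was 1.23 (-0.33 ± 0.46 against -1.56 ± 0.32). Of 6 glutathione peroxidases measured, 2 were higher, the other being Gpx1 (0.11), and Gpx3 stood at -1.06 with overlapping diets and at 0.08 within the slide. The median of the 6 was -0.28 over all arrays and 0.05 within the slide. Duox1, a dual oxidase that makes hydrogen peroxide at epithelial surfaces, was at -2.82, -2.46 and -2.40 against -3.65, -3.78 and -4.15, a difference of 1.30. Of 7 dual and NADPH oxidase genes measured, 6 were higher, with a median of 0.38 (0.43 within the slide). Duox1 alone had no overlap, which the rule required of it, where 9.31% of all genes were higher without overlap.

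A group of 9 genes encodes ligands, receptors and matrix proteins. Tgfb2, a TGF-beta ligand, was at 0.54, -0.10 and -0.43 on the high-fat arrays and -1.63, -1.16 and -2.05 on the controls. The high-fat arrays were ordered as in the alpha-class transferases, and the difference was 1.62 (0.00 ± 0.49 against -1.62 ± 0.45), with 1.63 from a second probe. Itgb6, the beta subunit of an epithelial integrin that activates latent TGF-beta, was at -0.11, -0.69 and -0.65 against -1.84, -1.50 and -2.71, a difference of 1.53. Nrep, a small intracellular protein linked to TGF-beta responses, was at 1.50, 1.26 and 1.58 against -0.47, 0.30 and -0.78, a difference of 1.77. In Nrep the controls spread over 1.08 and the high-fat arrays over 0.33.

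Genes of TGF-beta signalling did not share a direction. Of 14 ligands, receptors, latent-binding proteins, integrins and inhibitors measured, 9 were higher and 5 lower, with a median of 0.23. Tgfb3 differed by 0.60 and the inhibitor Smad7 by 0.56, both without overlap. Tgfb1 stood at -0.03 with overlapping diets and at 1.06 within the slide, and the receptor gene Tgfbr2 stood at -0.64. Itgav, the alpha partner of Itgb6, stood at 0.38 with overlapping diets.

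Ptch1, the Hedgehog receptor and itself a target of the pathway, was at -4.27, -4.00 and -4.03 against -5.05, -5.00 and -5.31, a difference of 1.02. Scube3, a secreted protein of a family that helps release Hedgehog ligands, was at -5.67, -5.72 and -5.67 against -6.73, -6.66 and -6.43, a difference of 0.92. Its high-fat arrays lay within 0.05 of each other, but its dimmest array was 0.70 above the lowest level called well above background. Of 17 Hedgehog pathway genes measured, 5 were higher and 12 lower. The transcription factors Gli1 (-1.20) and Gli2 (-0.80), the inhibitor Hhip (-1.11) and the co-receptor gene Gas1 (-1.33) were among the lower over all arrays. Within the slide they stood at 0.56, -0.17, -1.99 and -1.05 in that order, so Gli1, whose diets overlapped, turned sign. The ligand gene Shh was not detected well above background on an array of either diet.

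Fzd10, a WNT receptor, was at -2.02, -2.55 and -2.50 against -3.56, -3.35 and -3.67, a difference of 1.17. Other frizzled genes went both ways, 6 of 10 being higher in all, with Fzd5 at 1.09 (gap 0.18) and Fzd1 at -1.37. Tenm2, a teneurin adhesion receptor, was at -2.66, -2.50 and -2.26 against -3.71, -3.66 and -3.93. Its diets lay 1.01 apart with small spread in each (SD 0.20 and 0.14), and the difference was 1.30, while Tenm4 stood at -0.73 and Tenm1 at -0.34 (0.21 within the slide). Adgrg1, an adhesion G protein-coupled receptor, differed by 1.08 (0.06 ± 0.14 against -1.03 ± 0.22). Vwa1, a matrix protein of basement membranes, differed by 1.35 (0.52 ± 0.23 against -0.83 ± 0.34) and by 1.77 within the slide.

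Of 38 secreted signals on a list of ligands and their inhibitors, which holds Scube3, 23 were higher and 15 lower, with a median of 0.14. None passed limma's test upward and 1 passed downward, Igf2, a growth factor of growing tissue (-1.84, adjusted p = 0.0144 by limma). With Scube3 left out, 11 of 37 were higher and 6 lower at an unadjusted limma p of 0.05. The shares over all genes were 6.99% higher and 7.94% lower.

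A further 4 genes regulate transcription. Foxa2, a forkhead factor that opens chromatin in endoderm, was at -4.11, -3.73 and -4.61 on the high-fat arrays and -6.26, -5.88 and -6.97 on the controls. The difference was 2.22 (-4.15 ± 0.44 against -6.37 ± 0.55), the widest of the group, but its dimmest array stood 0.77 above the lowest level called well above background. With a normexp background the difference was 1.51, and its second probe was well above background on 2 arrays only. Pou2af1, a coactivator of octamer-binding factors best known in B cells, was at -3.07, -3.52 and -2.99 against -4.53, -5.11 and -5.27, a difference of 1.77. B cell markers were mixed. Of 8 measured, 5 were higher and 3 lower (median 0.15), Ms4a1 and Fcrla were not well above background on any array, and the summed signal overlapped (22.8 to 29.0 against 21.8 to 35.6).

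Bcl11b, a zinc finger factor of T cells and of skin, differed by 1.29 (-3.96 ± 0.20 against -5.26 ± 0.32), and its second probe by 1.55. Of 10 T and NK cell markers, 4 were higher and 6 lower, with a median of -0.08 (0.08 within the slide). Mkx, a homeobox factor of tendon, differed by 1.18 (-3.96 ± 0.13 against -5.14 ± 0.35). Within the slide Bcl11b differed by 0.91 and Mkx by 0.82.

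The last 6 genes are of mixed function. H2-M9, a non-classical class I gene of the major histocompatibility complex, was at -3.47, -2.40 and -4.29 against -6.22, -5.99 and -7.05. Its lowest high-fat array lay 1.70 above its highest control, the widest gap of the 32 genes. The difference was 3.03 (-3.39 ± 0.95 against -6.42 ± 0.56), 2.88 within the slide, 2.79 by a second probe and 2.13 with a normexp background. The controls were dim, the faintest lying 0.69 above the lowest level called well above background. H2-M1 stood at 1.06 with overlapping diets, H2-M11 at 0.07 and H2-M3 at -0.77 (0.09 within the slide), and 17 of 17 interferon response genes measured were lower (median -1.08), none past limma's test (0 higher and 9 lower at an unadjusted p of 0.05).

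Abcb1a, the P-glycoprotein that exports drugs and lipids, was at -2.72, -2.54 and -3.16 against -4.00, -4.32 and -4.18, a difference of 1.36. Serpinb10, a clade B serine protease inhibitor, was at -1.43, -1.82 and -1.55 against -3.00, -2.81 and -3.36, a difference of 1.45. The gap between its diets was 0.98, and it alone of its family met the rule. Of 14 clade B serpins measured, 7 were higher and 7 lower, among them Serpinb5 (0.62), an epithelial member, and Serpinb2 (-1.34). The diets overlapped in Serpinb2, which stood at -0.15 within the slide. Tbxas1, thromboxane A synthase, differed by 1.24 (-5.40 ± 0.37 against -6.64 ± 0.34) and by 1.72 within the slide.

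Slc16a5, of the monocarboxylate transporter family, differed by 1.22 (-5.86 ± 0.29 against -7.09 ± 0.23), but its dimmest array lay 0.34 above the lowest level called well above background. Its second probe, well above background on 3 arrays, gave -1.19, so the direction was not shared by both probes. Snora47, a small nucleolar RNA that guides RNA modification, differed by 1.34 (-2.20 ± 0.20 against -3.54 ± 0.48). It and Gm5476 were the only genes of the 32 that do not encode a protein.

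A second probe was present for 12 of the 32 genes. Of these probes, 10 were well above background on all arrays, and all 10 had the same sign and 7 met the gap as well. The probes of the 32 genes were mostly dim, 27 lying below the median brightness of all genes and 4 in the lowest 10%, where background subtraction weighs most. Brightness depends on the probe, so it ranks no gene's abundance.

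**Figure D4:**
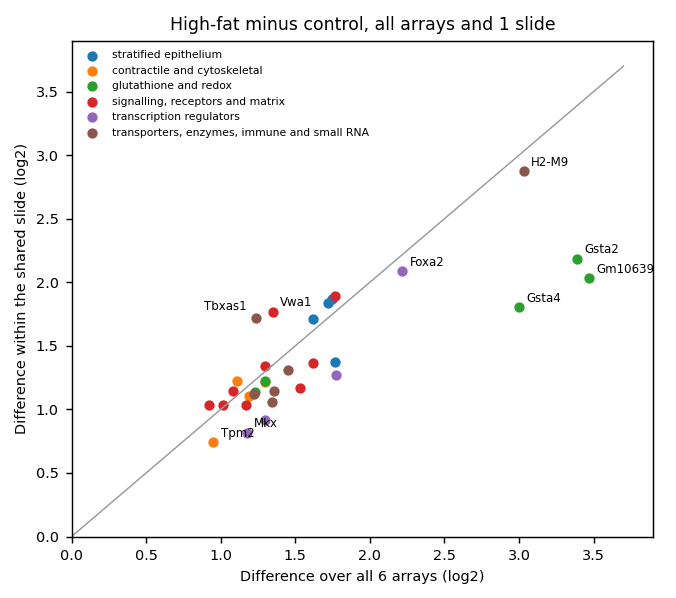
Difference between the diets within the slide that held both (y axis, high-fat arrays 2 and 3 minus control array 1, log2) against the difference over all 6 arrays (x axis, log2), 1 point per gene, coloured by functional group. The grey line marks equal values; all 32 genes lie above 0 on both axes, and Gsta2, Gsta4 and Gm10639 lie furthest below the line.

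All 32 genes were higher within the shared slide as well, though the rule had already required control array 1 to lie below both of those high-fat arrays, so both the direction and a lower bound of 0.7 there are set by the choice. The sizes ran from 0.74 for Tpm2 to 2.88 for H2-M9. Vwa1 (1.77) and Tbxas1 (1.72) were larger within the slide than over all arrays (1.35 and 1.24).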

How the data were processed

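Gene expression was measured on 6 single-colour Agilent arrays, 3 per diet, grouped by the labels. Per the file headers, the authors read the arrays with Agilent Feature Extraction 11.0.1.1 (array design on mouse build mm9), and each deposited scanner file gives linear intensity values for 44397 spots. The processed signal, already background-subtracted, was used. Control spots and outlier spots were left out, spots of a probe were averaged, and log2 was taken relative to the array's 75th percentile. Probes had to be well above background on all 6 arrays and to match a RefSeq symbol (27421 of 39429 probes), and the brightest probe stood for a gene. No gene coordinates are given, since the gene table is on another build. The deposited table of values (intensity, 30608 probes) stood in 1 ratio to the processed signal for 99.8% of values (within 1%), so its scale is linear and uncentred (column medians 0.134, 0.134, 0.137, 0.134, 0.140 and 0.134).

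The test between diets was limma's moderated linear model (version 3.58.1, under R 4.3.3), two-sided and with no covariate, with p-values adjusted over 15160 genes by Benjamini-Hochberg at a threshold of 0.05. It is no test for the 32 genes, and counts of lists at an unadjusted p leave them out. The procedure was tested on simulated data. The genes and the 20 marker and pathway lists were chosen with earlier results of these data known, and gene families and functional groups after the values were seen. Any of the 32 genes could be named; of each list, up to 6 others with the smallest limma p and the defining markers; and 5 genes each side of the threshold. Other lists had medians, over all arrays and then within the slide that held both diets, of -0.20 and -0.04 (milk, 3 of 9 higher), -0.12 and 0.08 (Schwann and nerve, 6 of 14), -0.16 and 0.20 (myeloid, 4 of 13), 0.15 and -0.10 (adipocyte, 12 of 20), 0.02 and 0.09 (fatty acid use, 10 of 20), 0.30 and 1.70 (endothelium, 10 of 16), 0.16 and 0.12 (hair and sebaceous, 7 of 11), 0.34 and 0.02 (MYC targets, 26 of 30) and 0.01 and 0.40 (serpins and proteases, 13 of 25). Alternatives covered scaling, background, filter, probe rule, source of values, thresholds, blocks and leaving out each array.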

Additional observations from a re-analysis of the deposited data

How the results depend on the processing

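The number of arrays limits precision, and dim probes rest on background subtraction. The count of 39 genes with the gap became 70 with no filter on dim probes, 74 at a gap of 0.5 and 10 at a gap of 1. It was 42 to 179 when 1 array was left out (58, 87 and 116 without high-fat arrays 1, 2 and 3, and 179, 110 and 42 without control arrays 1, 2 and 3), where a gap can only widen. Under the other settings it was 31 to 45. Of the 32 genes, 14 kept the gap with a normexp background, 27 with median scaling and 28 with quantile scaling. In the rest of these settings 31 or 32 kept it. The percentile taken over probes, chosen after seeing the data, gave 38. By limma, 1 gene passed upward and 13 downward. Upward calls numbered 3 with median scaling (17 downward), and 0 with quantile scaling (8 downward; 978 upward at an unadjusted p of 0.05), a normexp background (0; 553), a filter of 3 arrays (6; 1048), no filter (0; 1064), unnamed probes kept (6; 1484) and the slide as a block (0; 496). An unadjusted p of 0.05 gave 1059 upward calls. Leaving out 1 array gave 0 to 20: 20 without high-fat array 3 (130 downward) and 0 without each other array (378 to 1691 upward unadjusted). With the replicate block, 30 were called upward and 100 downward, but the numbers do not pair the samples (correlations 0.48, -0.17 and 0.32). The median difference of the 32 genes stayed between 1.24 and 1.45 in every setting run, and the normexp background shifted the median of all genes to 0.13. Of 576 values of single genes under alternatives, 563 stayed within the spread, 13 moved and 0 reversed. Those that moved were 10 with the slide as a block and 3 with normexp. The rule itself fixes the sign of these differences, and of their median, when 1 array is left out or the slide is a block. Some other settings return the main value unchanged, so these counts are no test of the 32 genes. Of 360 list medians, 15 moved.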
